A study of Mus musculus with 9 samples.

Results

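The MHC class I pathway was described here through 10 genes chosen by name: the heavy chain genes H2-K1 and H2-D1, the light chain gene B2m, the peptide transporter genes Tap1 and Tap2, the loading factor Tapbp, the immunoproteasome subunit genes Psmb8, Psmb9 and Psmb10, and the transcriptional activator Nlrc5. All 10 were found among the 23420 gene symbols of the deposited table, and all 10 passed the filter on low values (an RPKM of 1 or more in 2 libraries) that left 10868 genes for testing. RNA was measured by Smart-seq2 in 9 libraries of 100 FACS-sorted Mac1+ mouse bone marrow cells each. Mac1 is the product of Itgam, carried by granulocytes and monocytes.

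The mice were C57BL/6 of 3 genotypes, all of them homozygous for floxed alleles of Ezh2 and of Runx1 (fl/fl). DKOITD mice (n = 4 libraries) had in addition Rag1Cre and a heterozygous Flt3 ITD allele (ITD/+), an internal tandem duplication in a receptor kinase of early progenitors. ITD mice (n = 2) had the Flt3 ITD allele and no Cre, and WT mice (n = 3) had neither Cre nor ITD. Rag1Cre acts in cells that have expressed Rag1, which is known for its activity in early lymphoid cells, and the labels do not tell how many Mac1+ cells had deleted either floxed gene. The labels do not say whether libraries are separate animals, so every p-value below reflects library-to-library spread, which may be technical. The label numbers of the libraries fall into a low series (228, 267 and 274, DKOITD 1 to 3) and a high one (385 to 393, all others), and their meaning is not stated.

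MHC class I molecules show peptides from inside the cell to CD8+ T cells on nearly all nucleated cells. The proteasome cuts proteins into peptides, the TAP transporter moves them into the endoplasmic reticulum, tapasin holds empty class I molecules beside TAP, and a heavy chain with beta-2 microglobulin carries a bound peptide to the surface. Interferons induce most of these genes, and they exchange the standard catalytic subunits Psmb5, Psmb6 and Psmb7 for Psmb8, Psmb9 and Psmb10. Dendritic cells are known as strong presenters of antigen.

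Most of these genes sit in the MHC region. In mm10 coordinates (GENCODE vM21 annotation), H2-K1 spans chr17:33996017-34000347 on the minus strand and Tapbp chr17:33915899-33929292 on the plus strand. Psmb9 (chr17:34181987-34187764, minus strand), Tap1 (chr17:34187553-34197225), Psmb8 (chr17:34197721-34201454) and Tap2 (chr17:34203527-34216321, all but Psmb9 on the plus strand) follow each other. H2-D1 lies at chr17:35262730-35267499 on the plus strand. B2m (chr2:122147686-122153083, plus strand), Psmb10 (chr8:105935735-105938444, minus strand) and Nlrc5 (chr8:94434356-94527272, plus strand) are elsewhere. Smart-seq2 does not mark strand, and Psmb9 and Tap1 overlap by 212 bp on opposite strands. B2m lies inside the span of Patl2 on the other strand, but Patl2 was listed at 0 in 8 of 9 libraries and at 0.0701 in ITD 2. Annotated antisense genes overlap Psmb8, Tap2, Tapbp and Psmb10, and Zbtb22 overlaps Tapbp on the same strand. The noncoding gene 9330175E14Rik overlaps Nlrc5 by 748 bp on the opposite strand, and had 0.809, 0, 1.02 and 1.52 RPKM in DKOITD, 0 and 1.83 in ITD, and 0 in all WT libraries. Reads of such pairs may be mixed.

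Promoter windows are shown for the heavy and light chain genes and for the Tap1 and Psmb9 pair, since class I genes are known to share promoter elements. The windows run from 250 bases before to 50 bases after the RefSeq start site (GRCm38.p6, the build of mm10), 5′ to 3′ on the gene's own strand. Capitals mark 4 sets of letters searched on both strands, picked after the windows had been seen: AANNGAAA (core of interferon regulatory factor sites), GGGATTCCC (a kappaB-type site), TGACG (the core of a cyclic AMP response element) and CCAAT. A match is only a match of letters.
H2-K1, chr17:34000298-34000597, minus strand: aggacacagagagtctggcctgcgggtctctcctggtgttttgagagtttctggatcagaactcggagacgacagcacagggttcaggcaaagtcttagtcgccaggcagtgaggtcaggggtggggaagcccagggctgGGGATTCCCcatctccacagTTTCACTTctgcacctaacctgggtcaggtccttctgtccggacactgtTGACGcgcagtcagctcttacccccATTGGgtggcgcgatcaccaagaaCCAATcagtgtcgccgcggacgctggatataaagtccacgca
H2-D1, chr17:35262844-35263143, plus strand: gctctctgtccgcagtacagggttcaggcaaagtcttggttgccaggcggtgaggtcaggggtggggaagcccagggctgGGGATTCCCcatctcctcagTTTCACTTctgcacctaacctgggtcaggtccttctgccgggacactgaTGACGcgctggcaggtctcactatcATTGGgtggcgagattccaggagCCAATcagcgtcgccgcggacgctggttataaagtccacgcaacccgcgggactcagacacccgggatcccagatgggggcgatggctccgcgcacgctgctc
B2m, chr2:122147437-122147736, plus strand: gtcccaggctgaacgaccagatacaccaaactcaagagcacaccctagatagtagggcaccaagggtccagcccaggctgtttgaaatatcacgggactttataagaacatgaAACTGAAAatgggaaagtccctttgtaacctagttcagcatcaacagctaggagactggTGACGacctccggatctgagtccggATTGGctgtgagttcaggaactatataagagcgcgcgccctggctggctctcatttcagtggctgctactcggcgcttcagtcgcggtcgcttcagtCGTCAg
Tap1, chr17:34187306-34187605, plus strand: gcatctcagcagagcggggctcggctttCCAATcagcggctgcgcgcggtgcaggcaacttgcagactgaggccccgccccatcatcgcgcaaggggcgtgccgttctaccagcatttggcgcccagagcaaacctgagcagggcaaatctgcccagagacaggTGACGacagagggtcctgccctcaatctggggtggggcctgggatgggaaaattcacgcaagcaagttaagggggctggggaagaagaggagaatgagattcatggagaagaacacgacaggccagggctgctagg

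A window was found for 8 of the 10 genes, those other than Tap2 and Nlrc5. The H2-K1 and H2-D1 windows shared 206 of 228 aligned bases (90.4%), including an unbroken stretch of 47 bases that holds the GGGATTCCC match. That motif was in 2 of the 8 windows, against 0.353% of 32851 windows of the same length. AANNGAAA was in 3 (H2-K1, H2-D1 and B2m), against 23.9% of all windows. TGACG was in 5 of the 8 and in 20.8% of all windows, and CCAAT in 6 of the 8 and in 37.4%. In B2m the AANNGAAA match lies 137 to 130 bases before the start site and TGACG 78 to 74 bases before it. The Tap1 window and the Psmb9 window (chr17:34187281-34187580, minus strand) share 275 bp read from opposite strands, so their TGACG and CCAAT matches are the same bases. The RefSeq starts of H2-D1, Psmb8, Psmb9 and Tapbp lie 364, 474, 434 and 3579 bases from the GENCODE gene starts, and the windows of Psmb8 and Psmb10 held none of the 4 letter sets.

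Depth, similarity and cell markers of the libraries are given first. Reads recovered from the deposited values numbered 2824091 to 13294890 in DKOITD, 5106319 and 13737850 in ITD, and 14765527 to 23114869 in WT, and DKOITD 2 had the fewest. WT 2 stood apart, with a median correlation of 0.759 with the other libraries across genes, against 0.815 to 0.881 for the rest. The summed RPKM (read counts divided by gene length and library depth) of 9 neutrophil markers found in the table was 9827 to 48330.3 in DKOITD, 135964 and 136176 in ITD, and 136004 to 150820 in WT. The summed RPKM of 8 dendritic cell markers was 531 to 2972 in DKOITD, 215 and 629 in ITD, and 0.0575 to 6.27 in WT. Of the tested markers, 5 of 9 neutrophil genes fell and 6 of 7 dendritic cell genes rose in DKOITD against WT. Of all genes tested, 7.43% were called higher and 5.27% lower in that comparison (limma adjusted p under 0.05). With libraries rescaled to a fixed sum, 4 of 9 neutrophil genes fell, against 1.14% of all genes. On that scale 7 of 8 dendritic cell genes rose, against 44.9%. In the deposited values, 3 of the 9 neutrophil genes had positive differences. The granule genes Elane, Mpo and Prtn3 overlapped between DKOITD and WT. Mpo had 26.2 to 1131 RPKM in DKOITD and 0 to 872 in WT. Of 6 tested monocyte and macrophage markers, 3 rose (Ccr2, Cd68 and Fcgr1), with a summed RPKM of 1910 to 3216 in DKOITD, 3696 and 3831 in ITD, and 2547 to 3167 in WT. Of 3 tested plasmacytoid dendritic cell markers, 2 rose (Tcf4, and Bst2, which is also an interferon response gene), with 54.9 to 265 in DKOITD, 43.5 and 63.9 in ITD, and 4.70 to 20.9 in WT. Markers of lymphoid and erythroid cells were mixed in direction. The B cell receptor gene Cd79b, 1 of 2 tested B cell markers, rose, with 42.1 to 70.7 RPKM in DKOITD, 7.65 and 22.1 in ITD, and 5.16 to 13.98 in WT (2.43, limma adjusted p = 0.00669), while the B cell factor Pax5 was at 0 in all 9 libraries. Neither of 2 tested T cell markers was called: Cd3d had 0.0695 to 4.36 RPKM in DKOITD, 17.6 and 2.44 in ITD, and 4.92 to 11.6 in WT (-2.22, limma adjusted p = 0.0602), and Cd3e was at 0 in all 9 libraries. The cytotoxic granule gene Nkg7, the tested NK cell marker, fell, with 6.71 to 50.1 RPKM in DKOITD, 194 and 40.1 in ITD, and 60.1 to 342 in WT (-2.96, limma adjusted p = 0.0248; 0.0900 in TPM, values rescaled to a fixed sum per library). The globin gene Beta-s, 1 of 2 tested erythroid markers, fell as well, with 0 to 0.289 RPKM in DKOITD, 0 and 2669 in ITD, and 17103, 5372 and 17.02 in WT 1 to 3 (limma adjusted p = 0.0214; 0.105 without DKOITD 2 and WT 2). Itgam itself had 10.98 to 39.0 RPKM in DKOITD, 78.1 and 97.3 in ITD, and 90.3 to 143 in WT, and fell by 2.11 in DKOITD against WT (limma adjusted p = 0.00813; -1.36 and 0.0227 when libraries were rescaled to their own reads, -0.74 and 0.125 in TPM). In bulk samples, fewer cells of a type and less RNA per cell cannot be told apart, and the part of these markers in the class I values was not tested. The gene-level values of Ezh2 (1.54 to 18.1 RPKM in DKOITD, 12.9 and 19.0 in ITD, 2.05 to 12.4 in WT) also count reads outside floxed exons, so they do not check the deletion. Runx1 had 10.4 to 17.6 RPKM in DKOITD, 4.42 in both ITD libraries, and 3.53 to 13.02 in WT.

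The comparison of DKOITD with WT asks how Mac1+ cells of mice with all the alleles differ from those of the control. Among the 10 genes only Psmb8, an inducible catalytic subunit of the proteasome, rose past the threshold, and none fell. It was 3.44-fold higher in DKOITD on the log2(RPKM + 1) scale. H2-K1, B2m and Psmb10 also had higher levels in DKOITD with an unadjusted p under 0.05, but their adjusted p-values did not pass 0.05. With Psmb8 this made 4 of 10 genes, against 30.2% of all genes with an unadjusted p under 0.05, so that count is near the background. All tests across genes were made with limma over 10868 genes with Benjamini-Hochberg adjustment, two-sided. By that rule 12.7% of all genes tested were called in either direction, 7.43% as higher and 5.27% as lower, so 1 of 10 genes called higher is near the background. The median difference of the 10 genes was 0.73 on the log2 scale, against 0.17 over all genes tested, and 9 of the 10 differences were positive, against 56.6% of all genes (10 of 10 on own reads or in TPM, described below with the scaling).

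In the deposited values, DKOITD and WT libraries did not fall into ranges without overlap in any of the 10 genes. All DKOITD libraries were above all WT libraries in 14.1% of all genes tested. Orders and ranges of RPKM are given here and below in the deposited values. On own reads DKOITD 2 is multiplied by 1.29 and the WT libraries by 0.703 to 0.809, which raises DKOITD 2 against WT. With these factors DKOITD 2 lies above all WT libraries for H2-K1, H2-D1, B2m, Psmb8 and Psmb10. It does not for Tap1, Tap2, Tapbp, Psmb9 and Nlrc5. Overlap over all genes was not counted on that scale. DKOITD 2 was the lowest DKOITD library for all 10 genes, at 18.9% (Tap2) to 71.1% (H2-D1) of the mean of the other three DKOITD libraries, and it was above all WT libraries for 0 of the 10, against 30.4% of all genes. DKOITD 3 was above all WT libraries for all 10 genes (33.3% of all genes tested), DKOITD 1 for 8 (32.6%) and DKOITD 4 for 8 (28.4%). DKOITD 4 is the only DKOITD library in the high label series, to which all 3 WT libraries belong. Without DKOITD 2, 3 genes were called, all higher: Psmb8 (2.18, adjusted p = 0.00691), H2-K1 (1.35, adjusted p = 0.0203) and Psmb10 (1.06, adjusted p = 0.0410). Of all genes, 6.59% were called higher in that fit. Leaving out WT 2 as well also gave 3, against 4.69% of all genes.

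By mean RPKM over the 9 libraries, the levels ran from B2m (5605) through H2-D1 (658), H2-K1 (587), Psmb8 (400.4), Psmb9 (191), Tapbp (108), Psmb10 (84.2), Tap1 (34.3) and Tap2 (13.8) to Nlrc5 (4.97). RPKM is per gene length, so these levels can be set beside each other roughly. Reads of H2-K1 and H2-D1 may be split or lost, as described below, and the counting settings are not given. H2-D1 and H2-K1 exchange places between libraries, and so do Tapbp and Psmb10. Psmb8 was above H2-D1 in DKOITD 1, just above H2-K1 in ITD 1 and below Psmb9 in WT 1. B2m was the highest of the 10 in every library.

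**Figure D1:**
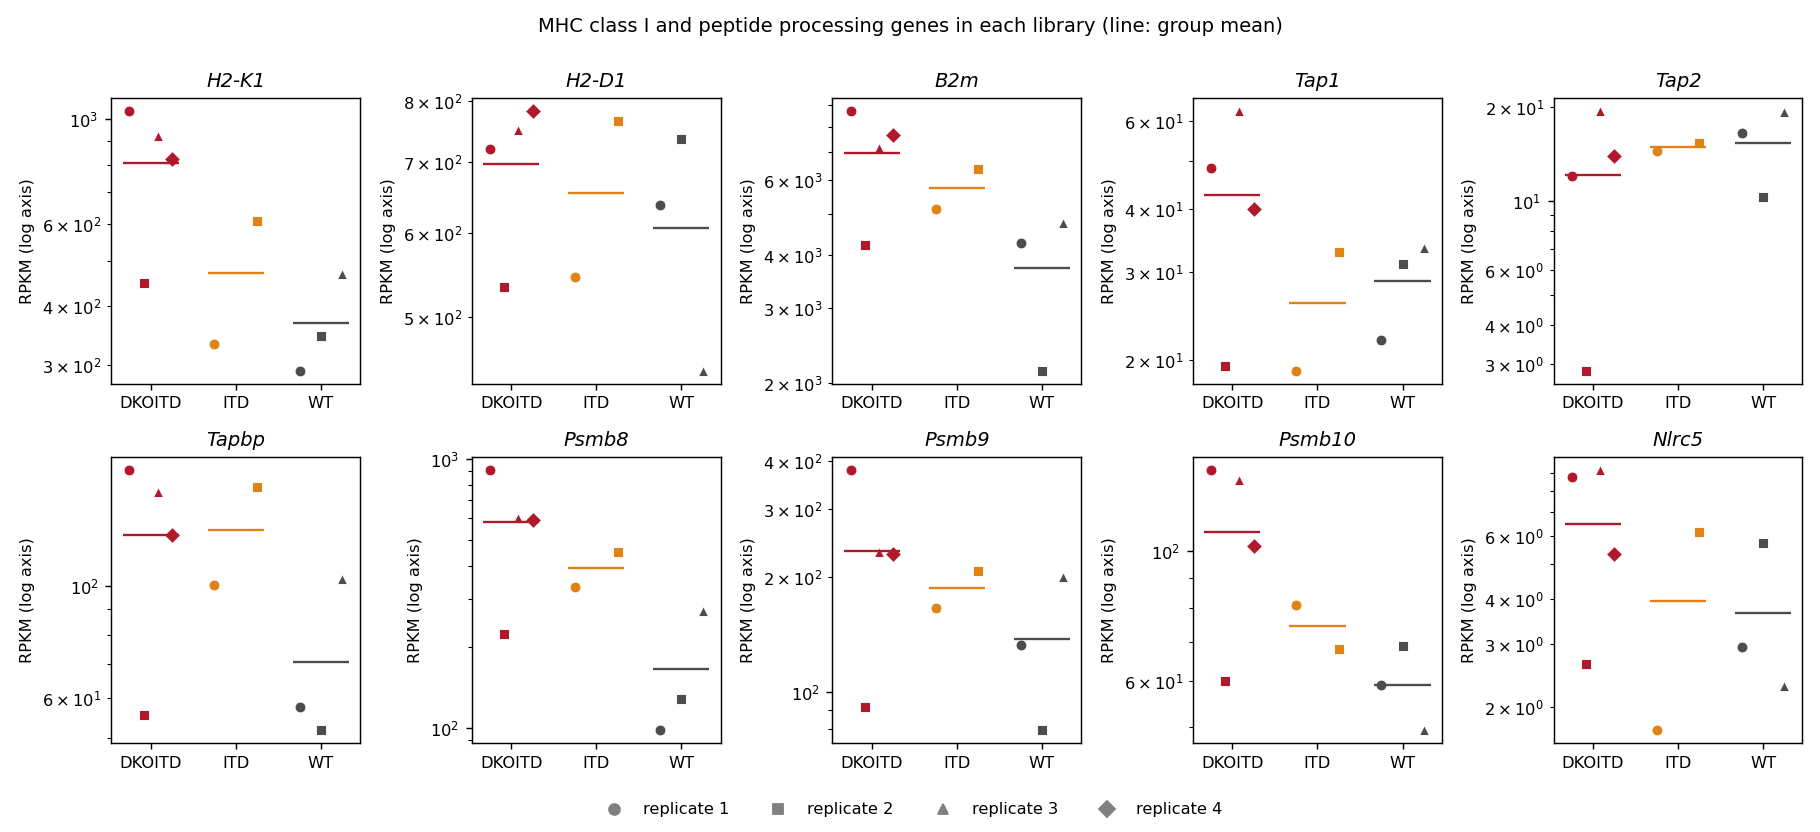
RPKM (log axis) of the 10 genes in each library of the DKOITD, ITD and WT groups, with a line at each group mean and a marker shape for each replicate number. DKOITD 2 (square) is the lowest DKOITD library in all 10 panels, and Psmb8 has 594 to 906 RPKM in the other three DKOITD libraries, above the 97.8 to 271 RPKM of WT.

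H2-K1 and H2-D1 encode the classical class I heavy chains of this strain, the chains that bind peptide. H2-K1 had 1042, 449, 919 and 823 RPKM in DKOITD 1 to 4, 333 and 608 in ITD, and 292, 347 and 468 in WT. DKOITD 1, DKOITD 3 and DKOITD 4 were above every library of the other groups, and DKOITD 2 lay within the WT range. Its mean was 808 ± 256 RPKM in DKOITD and 369 ± 90.2 in WT (SD, n = 4 and 3), a difference of 1.09 ± 0.34 (log2 ± SE; 95% interval 0.35 to 1.83; limma adjusted p = 0.0547). H2-D1 had 721, 534, 751 and 783 RPKM in DKOITD, 545 and 765 in ITD, and 638, 736 and 445 in WT. These ranges overlap throughout, and the difference between DKOITD and WT was 0.22 ± 0.27 (95% interval -0.37 to 0.80; limma adjusted p = 0.610). The ratio of H2-K1 to H2-D1 within a library, looked at after the values were seen and therefore not tested, was 1.45, 0.841, 1.22 and 1.05 in DKOITD, 0.611 and 0.795 in ITD, and 0.458, 0.471 and 1.05 in WT. So H2-D1 had more RPKM than H2-K1 in both ITD libraries and in WT 1 and WT 2, and less in 3 of 4 DKOITD libraries. Class I heavy chain genes are near-identical in places, and reads may be split between them or lost: H2-Q6, H2-Q7, H2-Q8 and H2-Q9 were listed at 0 in all 9 libraries.

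B2m encodes beta-2 microglobulin, the light chain of all class I molecules, and was by far the most abundant of the 10, ranking 12 among all genes by mean RPKM. It had 8742, 4219.7, 7144 and 7677 RPKM in DKOITD, 5129 and 6383 in ITD, and 4259, 2135 and 4755 in WT. DKOITD 1, DKOITD 3 and DKOITD 4 were highest, both ITD libraries were above all WT libraries, and DKOITD 2 lay among WT. The difference between DKOITD and WT was 0.93 ± 0.35 (95% interval 0.18 to 1.69; limma adjusted p = 0.0961). The ratio of H2-K1 to B2m, also looked at after the values were seen, was 0.106 to 0.129 in all 4 DKOITD libraries, 0.0650 and 0.0953 in ITD and 0.0686 to 0.162 in WT. Thus DKOITD 2 had less H2-K1 and B2m in nearly the proportion of the other DKOITD libraries. Against their mean, DKOITD 2 was at 48.4% for H2-K1 and 53.7% for B2m, but at 71.1% for H2-D1.

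Tap1 and Tap2 encode the subunits of the peptide transporter, and Tapbp encodes tapasin. Tap1 had 48.3, 19.4, 62.9 and 40.1 RPKM in DKOITD, 19.0 and 32.8 in ITD, and 21.9, 31.0 and 33.4 in WT. All DKOITD libraries but DKOITD 2 were above the rest and DKOITD 2 below all of WT, and the difference to WT did not pass the threshold (0.46 ± 0.41; limma adjusted p = 0.469). Tap2 had 12.02, 2.86, 19.4 and 13.9 RPKM in DKOITD, 14.5 and 15.3 in ITD, and 16.5, 10.3 and 19.3 in WT. It was the only gene of the 10 with a lower mean in DKOITD than in WT (12.05 ± 6.88 against 15.3 ± 4.62 RPKM), with a difference of -0.51 ± 0.53 (limma adjusted p = 0.538) that turned positive when libraries were rescaled to their own reads (0.19) or to a fixed sum per library (TPM, 0.78). Tap1 was thus 2.88 to 6.79 times Tap2 in DKOITD, 1.31 and 2.15 times in ITD, and 1.33 to 3.02 times in WT, in RPKM, where the order of DKOITD and WT overlaps. Tapbp had 169, 55.6, 153 and 126 RPKM in DKOITD, 100.4 and 157 in ITD, and 57.5, 51.8 and 103 in WT. All DKOITD libraries but DKOITD 2 exceeded all WT libraries, 1 of them exceeded both ITD libraries, and the difference to WT was 0.77 ± 0.41 (limma adjusted p = 0.220).

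Psmb8, Psmb9 and Psmb10 encode the inducible catalytic subunits LMP7, LMP2 and MECL-1. Psmb8 had 906, 224, 600.1 and 594 RPKM in DKOITD, 334 and 449 in ITD, and 97.8, 128 and 271 in WT. All DKOITD libraries but DKOITD 2 were above both ITD libraries, which were above all WT libraries, and DKOITD 2 lay between WT 2 and WT 3. The difference between DKOITD and WT was 1.78 ± 0.46 (95% interval 0.78 to 2.78; limma adjusted p = 0.0275), higher in 3 of 4 DKOITD libraries than in any WT library. The call was lost when any of DKOITD 1, DKOITD 3, DKOITD 4, WT 1 or WT 2 was left out, with adjusted p-values of 0.0569 to 0.0879 and differences of 1.47 to 1.72, and when the series of label numbers was a term in the fit (1.98, adjusted p = 0.427), when the replicate number was a block (1.72, adjusted p = 0.0581) or no filter was set (adjusted p = 0.1002). Psmb9 had 379, 91.6, 232 and 229 RPKM in DKOITD, 166 and 207 in ITD, and 133, 79.5 and 200.1 in WT. DKOITD 1, DKOITD 3 and DKOITD 4 were highest, WT 3 was close to ITD 2, and the difference to WT was 0.69 ± 0.44 (limma adjusted p = 0.312). Psmb10 had 138, 59.9, 132 and 102 RPKM in DKOITD, 81.0 and 68.0 in ITD, and 59.1, 68.7 and 49.3 in WT. All DKOITD libraries but DKOITD 2 were above the rest. The difference of Psmb10 between DKOITD and WT was 0.80 ± 0.33 (95% interval 0.09 to 1.51; limma adjusted p = 0.123).

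The standard subunits that these replace had differences between DKOITD and WT of -0.01 ± 0.30 (Psmb5), 0.37 ± 0.27 (Psmb6) and -0.05 ± 0.30 (Psmb7). Psmb5 had 33.6 to 48.7 RPKM in DKOITD, 37.4 and 38.3 in ITD, and 36.0 to 59.0 in WT, and none of Psmb5, Psmb6 and Psmb7 passed the threshold in any of the 3 comparisons with the deposited scaling, nor had any an unadjusted p under 0.05. In TPM all 3 rose in DKOITD against WT, where 44.9% of all genes did, and on own reads 1, where 23.1% did. Ratios of an inducible to its standard subunit were taken within each library, where the scaling of the library cancels apart from the pseudocount of the test. Psmb8 to Psmb5 was 19.9, 4.60, 13.2 and 17.7 in DKOITD, 8.93 and 11.7 in ITD, and 2.72, 3.35 and 4.59 in WT. All DKOITD and ITD libraries were above WT, DKOITD 2 by less than 0.01, and both ITD libraries were above DKOITD 2. On the scale that was tested, log2 of (RPKM + 1) ratios, 3 of 4 DKOITD libraries were above all WT libraries, with a mean difference of 1.79 (two-sided exact permutation p = 0.114, adjusted p = 0.171 over 3 ratios). Psmb10 to Psmb7 was 1.0006, 0.603, 1.41 and 1.0002 in DKOITD, 0.656 and 0.890 in ITD, and 0.437, 0.869 and 0.389 in WT, a mean difference of 0.85 (exact permutation p = 0.114, adjusted p = 0.171). Psmb9 to Psmb6 was 1.25, 0.487, 0.973 and 1.23 in DKOITD, 0.909 and 1.09 in ITD, and 0.594, 0.492 and 1.39 in WT, and overlapped (0.32, exact permutation p = 0.743). With 4 libraries against 3 the smallest two-sided p is 0.0571, so none of these ratios could have passed 0.05.

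Psmb8 and Psmb9 flank Tap1 in the genome and are usually induced together, so their ratio was looked at as well, after the values had been seen and without a test. Psmb8 to Psmb9 was 2.39, 2.44, 2.59 and 2.60 in DKOITD, 2.01 and 2.17 in ITD, and 0.735, 1.61 and 1.35 in WT. The 3 groups did not overlap, and DKOITD 2 was among its group here (mean 2.50 ± 0.10 in DKOITD, 2.09 ± 0.11 in ITD and 1.23 ± 0.45 in WT, SD). The 4 DKOITD values spanned a narrow range although Psmb8 itself ran from 224 to 906 RPKM there.

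**Figure D2:**
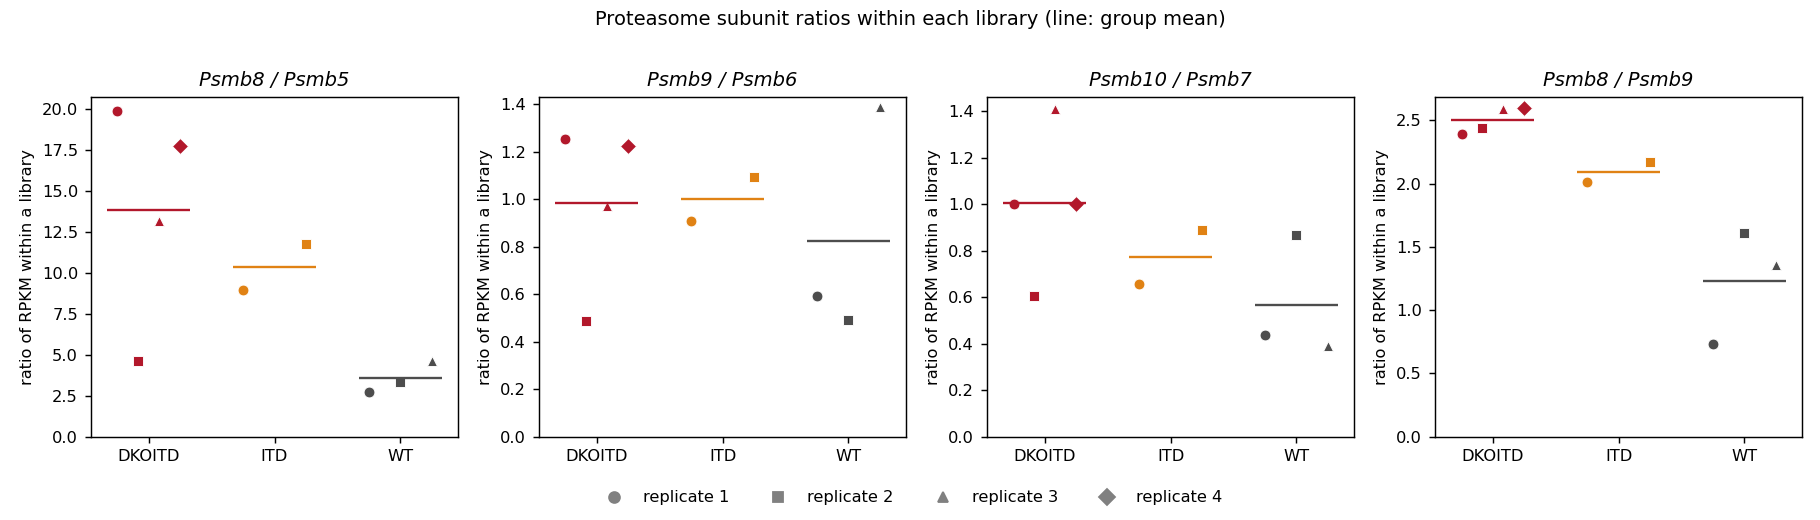
Ratios of RPKM within each library for inducible over standard proteasome subunits and for Psmb8 over Psmb9, on linear axes from 0, with a line at each group mean. The Psmb8 to Psmb9 ratio lies between 2.39 and 2.60 in DKOITD, at 2.01 and 2.17 in ITD and between 0.735 and 1.61 in WT, whereas the Psmb9 to Psmb6 ratios overlap.

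Nlrc5 encodes the activator of class I promoters, a relative of the class II activator Ciita, and had the lowest level of the 10. It had 8.77, 2.64, 9.14 and 5.35 RPKM in DKOITD, 1.72 and 6.15 in ITD, and 2.94, 5.71 and 2.29 in WT. DKOITD 1 and DKOITD 3 were highest and all other libraries overlapped, with a difference between DKOITD and WT of 0.64 ± 0.55 (95% interval -0.55 to 1.84; limma adjusted p = 0.448). Ciita, by contrast in value, had a difference of 3.12 ± 0.59 (limma adjusted p = 0.00793), and no test was made of the difference between the genes.

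Between DKOITD and ITD, which differ by Rag1Cre, none of the 10 genes passed the threshold and none had an unadjusted p under 0.05, against 0.212% of all genes called in either direction by limma and 15.7% with an unadjusted p under 0.05. No gene had all DKOITD libraries above both ITD libraries, against 17.3% of all genes. The largest difference was that of H2-K1 (0.78 ± 0.38, limma adjusted p = 0.362, 95% interval -0.06 to 1.61), followed by Nlrc5 (0.65 ± 0.62) and Tap1 (0.63 ± 0.47). Those of Psmb8 (0.42 ± 0.52), B2m (0.23 ± 0.39), Psmb9 (0.16 ± 0.50), H2-D1 (0.09 ± 0.30) and Tapbp (-0.11 ± 0.46) were smaller than their standard errors. For Psmb8 the 95% interval ran from -0.71 to 1.55, which includes a 2-fold rise. Psmb10 had 0.46 ± 0.37 and Tap2 -0.51 ± 0.61. DKOITD 1 was above both ITD libraries for 8 genes (40.5% of all genes), DKOITD 3 for 8 (41.1%), DKOITD 4 for 7 (37.0%) and DKOITD 2 for 0 (38.8%).

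Between ITD and WT, which differ by the Flt3 ITD allele, none of the 10 genes passed the threshold, against 0.0092% of all genes called in either direction by limma, and 1 had an unadjusted p under 0.05 (against 7.93% of all genes), Psmb8 (1.36 ± 0.55, limma adjusted p = 0.582, 95% interval 0.17 to 2.55). B2m and Psmb8 were higher in both ITD libraries than in all WT libraries, 2 of 10 genes against 10.1% of all genes. Tapbp (0.89 ± 0.49) and B2m (0.70 ± 0.42) came next in size, and Tap1 (-0.17 ± 0.49), Tap2 (-0.00068 ± 0.64) and Nlrc5 (-0.0066 ± 0.66) were near or below 0 and above 0 in TPM. ITD 2 was above all WT libraries for 7 genes (22.8% of all genes) and ITD 1 for 3 (21.5%). By group means, 7 of the 10 genes had the order DKOITD, ITD, WT from high to low, against 23.6% of all genes. The comparisons share groups, so these counts are not separate evidence, and the ITD group rests on 2 libraries.

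**Figure D3:**
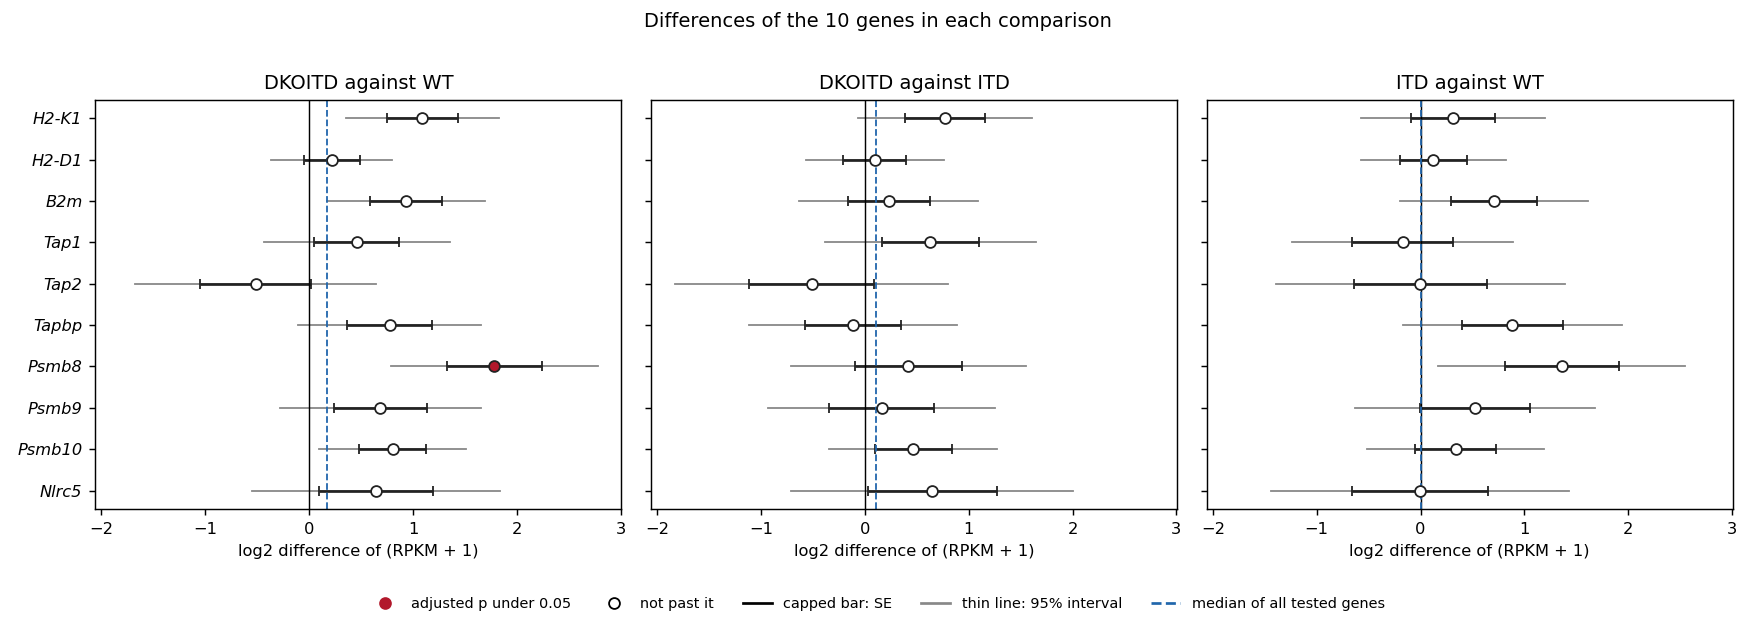
Log2 differences of (RPKM + 1) for the 10 genes in DKOITD against WT, DKOITD against ITD and ITD against WT, with capped bars for the SE, thin lines for the 95% interval and a dashed line at the median of all genes tested. Only Psmb8 in DKOITD against WT (1.78) is filled as past the adjusted threshold, and Tap2 lies at -0.51 in both DKOITD comparisons.

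The other genes of the pathway were counted in lists. The list of other class I and class I-like genes had 24 members in the table and 10 that passed the filter, of which 5 rose and 1 fell in DKOITD against WT (limma adjusted p under 0.05, against 7.43% and 5.27% of all genes), with a median difference of 1.42. Fcgrt, the neonatal Fc receptor that binds IgG and albumin, had 119.8, 61.5, 126 and 43.9 RPKM in DKOITD, 9.20 and 14.3 in ITD, and 11.4, 2.59 and 2.88 in WT. It rose by 3.86 ± 0.52 (limma adjusted p = 0.00187), and every DKOITD library was above all libraries of the other groups. H2-M3, which presents formylated peptides of bacteria, had 149, 39.7, 114 and 88.0 RPKM in DKOITD, 20.8 and 23.9 in ITD, and 11.8, 20.7 and 19.1 in WT, again without overlap (2.33 ± 0.43, limma adjusted p = 0.00681). Cd1d1, which presents lipids to natural killer T cells, had 29.7, 25.97, 36.4 and 6.77 RPKM in DKOITD, 12.3 and 3.66 in ITD, and 0, 0 and 5.39 in WT (3.58, limma adjusted p = 0.0124; 3.04 and 0.0685 without DKOITD 2 and WT 2). H2-Q10, a secreted class I molecule, fell by 3.17, with 0.732, 15.4, 0.0627 and 14.2 RPKM in DKOITD, 35.4 and 42.7 in ITD, and 83.5, 57.0 and 13.9 in WT (limma adjusted p = 0.0453). Its groups overlapped, and the call was lost without DKOITD 2 and WT 2 (adjusted p = 0.0668) and when libraries were rescaled to their own reads (0.0636). Without DKOITD 2 and WT 2 the list had 5 higher and 0 lower, against 4.69% of all genes called higher.

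Of the genes of the loading complex and of peptide trimming, 10 of 11 passed the filter. In DKOITD against WT 3 rose and 1 fell, against 7.43% and 5.27% of all genes (median 0.56). On own reads 4 rose and none fell, and in TPM 7 rose and none fell. Of all genes, 23.1% rose on own reads and 44.9% in TPM. Pdia3, the disulfide isomerase ERp57 of the loading complex, had 257, 184, 202 and 203 RPKM in DKOITD, 139.7 and 178 in ITD, and 53.2, 58.2 and 161 in WT (1.39, limma adjusted p = 0.0290). Canx, the chaperone calnexin that folds new heavy chains, had 112 to 140.1 RPKM in DKOITD, 91.5 and 73.9 in ITD, and 38.4 to 72.5 in WT (1.28, limma adjusted p = 0.0163). The leucine aminopeptidase gene Lap3 rose (2.07, limma adjusted p = 0.0269) and the cytosolic aminopeptidase gene Npepps fell by 1.89 (limma adjusted p = 0.0385; -1.18 and 0.102 on own reads, -0.58 and 0.345 in TPM, so without a call under either). Unlike the 10 genes, Lap3 and Canx were not lowest in DKOITD 2 among the DKOITD libraries, with 12.5 and 128 RPKM there. None of the 4 was called without DKOITD 2 and WT 2 (adjusted p-values 0.0648 to 0.124), with fewer samples in the fit.

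Among the structural proteasome genes, 1 of 12 other 20S subunits rose, Psma7 (0.88, limma adjusted p = 0.0277), and the median was 0.36, a share near the 7.43% of all genes. On own reads 10 of the 12 rose (median 1.11) and in TPM all 12 (median 1.74), against 23.1% and 44.9% of all genes. None of the 12 was called without DKOITD 2 and WT 2 (adjusted p = 0.0630 for Psma7). Of 4 activator genes, 1 fell, against 5.27% of all genes. This gene, Psme3, encodes the PA28 gamma subunit of a nuclear activator. It had 6.07 to 9.17 RPKM in DKOITD, 20.3 and 21.2 in ITD, and 13.2 to 21.4 in WT. Its difference was -1.17 (limma adjusted p = 0.0496), and 0.12 without a call when libraries were rescaled to a fixed sum. Without DKOITD 2 and WT 2 its limma adjusted p was 0.140. Psme1 and Psme2, which encode the interferon-inducible PA28 alpha and beta, had differences of 0.34 (adjusted p = 0.492) and 0.76 (adjusted p = 0.284). The 19 regulators of class I transcription had 2 higher (against 7.43% of all genes), none lower and a median of -0.09. The sign of that median turned with the scaling. On own reads 4 of the 19 were higher (median 0.66), against 23.1% of all genes. In TPM 10 were higher (median 1.29), against 44.9% of all genes. Both counts are near the background. Ifngr1, a chain of the interferon gamma receptor, had 329.8, 451, 408 and 343 RPKM in DKOITD, 216 and 183 in ITD, and 139, 90.2 and 132 in WT, without overlap (1.67 ± 0.26, limma adjusted p = 0.00346). Irf8, a factor of monocyte and dendritic cell development, had 69.4, 48.0, 59.8 and 28.6 RPKM in DKOITD, 21.0 and 28.1 in ITD, and 23.4, 23.9 and 9.59 in WT (1.42, limma adjusted p = 0.0419; 0.0671 without DKOITD 2 and WT 2). Irf1, which carries interferon signals to class I promoters and was named after its values were seen, had a difference of -0.40 (adjusted p = 0.446).

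The class II genes, which present peptides from endosomes, are set beside these. All 10 of 10 rose in DKOITD against WT (median 5.28), against 7.43% of all genes, and all were without overlap (against 14.1% of all genes). Without DKOITD 2 and WT 2, 10 of 10 rose, against 4.69% of all genes. With the replicate number as a block 9 of 10 rose (against 4.34% of all genes), and with the series of label numbers as a term none was called (median 6.02), where 4 genes in all were. The 4 largest differences were those of H2-Eb1 (8.28), H2-Aa (7.56), H2-Ab1 (6.82) and Cd74 (6.66). The ratio of Cd74, the invariant chain, to B2m was 1.43, 0.807, 1.81 and 1.58 in DKOITD, 0.348 and 0.655 in ITD, and 0.0824, 0.0437 and 0.00434 in WT, without a test since it was chosen after the values were seen. In WT, then, B2m exceeded Cd74 by more than 10 times in RPKM in every library, and in 3 of 4 DKOITD libraries Cd74 exceeded B2m.

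In the deposited values, the 10 genes, the proteasome activators and the class I regulators had their lowest list mean in DKOITD 2. So did the interferon response genes. Of 20, 3 rose in DKOITD against WT (Ifi44 4.70, Usp18 3.41 and Bst2 3.20), against 7.43% of all genes, none fell, and the median was 1.90. Ifi44 was at 0 RPKM in each WT library, so the size of its difference depends on the pseudocount. Without DKOITD 2 the count of interferon response genes called higher was 15, against 6.59% of all genes. Without both DKOITD 2 and WT 2 it was 13, against 4.69%. It was 9 on own reads and 14 in TPM, against 23.1% and 44.9% of all genes. The mean of log2(RPKM + 1) over the list was 6.18, 2.38, 5.97 and 5.83 in DKOITD, 4.66 and 5.61 in ITD, and 3.33, 2.86 and 3.62 in WT, and that of the 10 class I genes was 7.82, 6.42, 7.73 and 7.49 in DKOITD, 6.83 and 7.33 in ITD, and 6.57, 6.55 and 6.91 in WT. As deposited, DKOITD 2 was the lowest of all 9 libraries on both, while its class II mean (7.26) was above that of every WT library (2.44 to 4.49). DKOITD 2 was also the lowest on the means of the proteasome activators (4.82) and the class I regulators (3.84). List means were not taken on own reads. There DKOITD 2 is multiplied by 1.29 and the WT libraries by 0.703 to 0.809. For the 10 class I genes these factors outweigh the gap to the WT means, so DKOITD 2 is not the lowest there. The place of DKOITD 2 in the interferon list on own reads was not worked out. Of 11 interferon gamma-inducible GTPases that passed the filter, 2 rose, Gbp4 (2.54) and Irgm1 (2.30), against 7.43% of all genes, and the median was 1.41. Without DKOITD 2 and WT 2 the count of GTPases was 4, against 4.69% of all genes. It was 7 of 12 on own reads and 10 of 12 in TPM, against 23.1% and 44.9% of all genes. In DKOITD against ITD and in ITD against WT, 0 of the 99 tested genes of the 9 other pathway lists were called by limma, with 17 and 21 at an unadjusted p under 0.05, against 15.7% and 7.93% of all genes. In DKOITD against ITD, 7 of 100 tested genes of these lists were called higher on own reads, against 2.21% of all genes. In TPM 26 of 100 were, against 13.6%, among them 6 class II genes. In ITD against WT, 20 of 20 interferon response genes had positive differences (median 2.05; 49.7% of all genes were positive), 8 of them with an unadjusted p under 0.05.

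**Figure D4:**
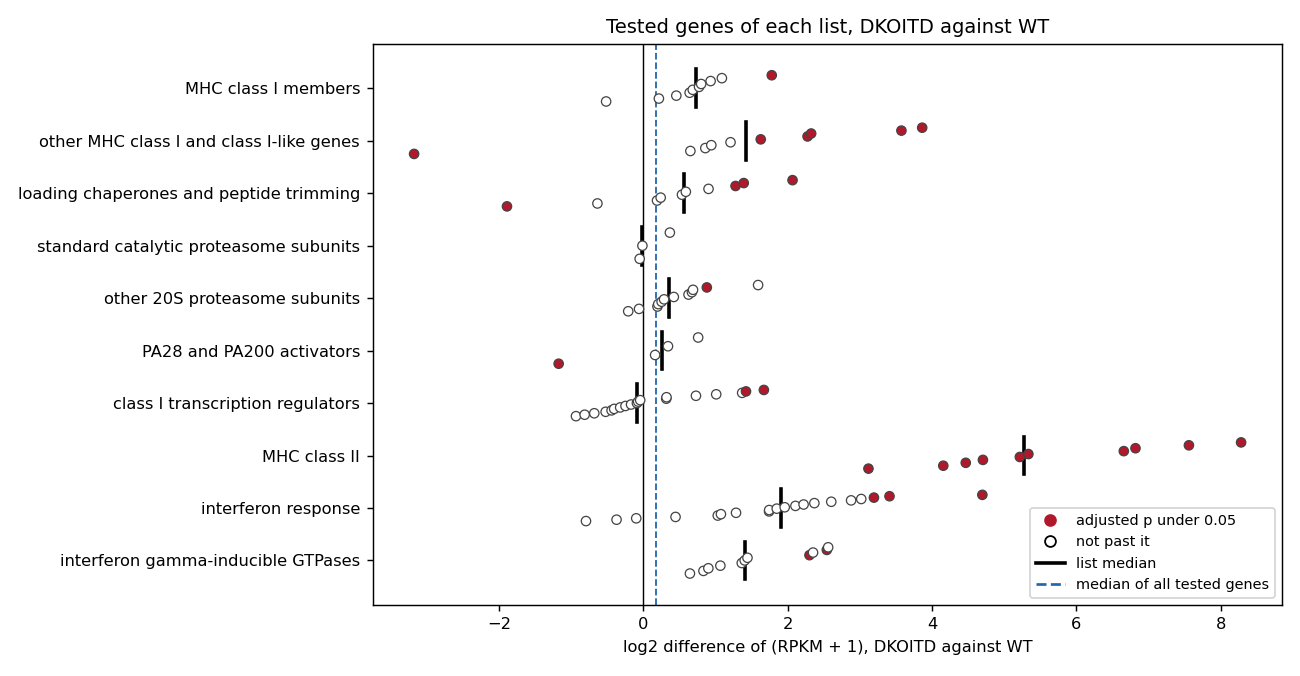
Log2 differences of (RPKM + 1) between DKOITD and WT for the tested genes of each list, filled where the limma adjusted p is under 0.05, with a bar at the list median and a dashed line at the median of all genes tested (0.17). The 10 class I genes have a median of 0.73 with 1 filled point, and the class II genes a median of 5.28 with all 10 filled.

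The scaling of the libraries bears on all of these values. To give RPKM on the library's own recovered reads, the deposited columns have to be multiplied by 1.13 to 1.44 in DKOITD, 0.918 and 0.853 in ITD, and 0.703 to 0.809 in WT. Rescaling to own reads moved the median difference of all genes between DKOITD and WT to 0.74 and that of the 10 genes to 1.49, with 7 called higher, against 23.1% of all genes. Rescaling every library to the same fixed sum (TPM) moved them to 1.20 and 2.12, with 9 called higher, all but Tap2, against 44.9% of all genes. Quantile normalization gave -0.03 and 0.77, with 3 called higher (Psmb8, B2m and H2-K1), against 6.24% of all genes. Under each of the 4 scalings, 9 of the 10 genes, all but Tap2, lay above the median of all genes. The median of the 10 genes exceeded that of all genes by 0.56 as deposited, 0.75 on own reads, 0.92 in TPM and 0.80 after quantile normalization. Class I mRNA per cell was not measured, so which scaling reflects it was not tested.

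**Figure D5:**
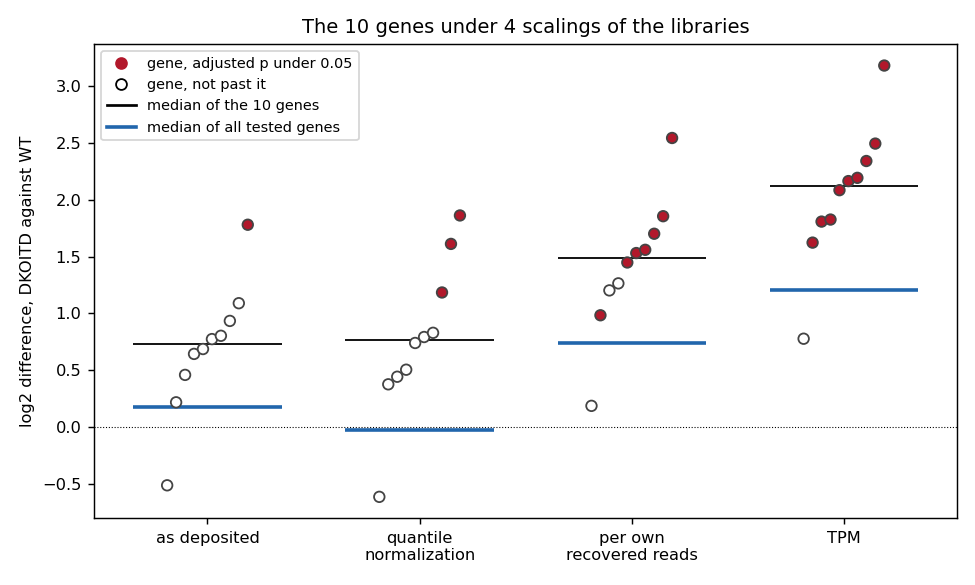
Log2 difference between DKOITD and WT for the 10 genes under 4 scalings of the libraries, filled where the limma adjusted p is under 0.05, with a thin line at their median and a thick line at the median of all genes tested. The medians of all genes are 0.17, -0.03, 0.74 and 1.20 from left to right, and those of the 10 genes 0.73, 0.77, 1.49 and 2.12.

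The genes whose profiles over the 9 libraries were most like those of H2-K1, B2m and Nlrc5 were found by the root mean square distance of centred log2(RPKM + 1) values. For H2-K1 these were Gbp6 (0.177), an interferon-inducible GTPase, Emg1 (0.182) and Yae1d1 (0.184), against a median distance of 0.912 over all genes tested. For B2m they were Eef1d (0.207), Arf2 (0.210) and Dtx3l (0.215), against 0.865. For Nlrc5 they were Nav1 (0.249), Orai3 (0.274) and Ptger4 (0.282), against 0.957. Emg1, a ribosome assembly factor, had 72.5, 35.3, 57.3 and 53.1 RPKM in DKOITD, 30.0 and 47.7 in ITD, and 23.3, 21.7 and 37.7 in WT, low in DKOITD 2 like H2-K1. These distances describe 9 libraries, and low genes such as Gbp6 and Yae1d1 were at 0 in WT 1 and WT 2.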

How the data were processed

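RNA was measured in 9 Smart-seq2 libraries. The authors deposited RPKM per gene symbol (23420 symbols). The tools STAR 2.4.2a, HTSeq 0.6.1p1 and SAMtools 1.1, and the mm10 build, appear without a role per the submitters' processing notes. Sources used here do not give the annotation, the counting settings or the RPKM denominator. Titles gave the groups and replicate numbers.

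The filter kept 10868 genes that reached an RPKM of 1 in 2 or more libraries. Then log2(RPKM + 1) was fitted with limma 3.58.1 (R 4.3.3; eBayes with a trend), all 9 libraries in 1 fit, two-sided, with Benjamini-Hochberg adjustment over all genes tested and a threshold of 0.05. This scale understates changes of low genes. The fit was tested on simulated data. Ratios of subunits were compared with exact permutation tests (scipy 1.17.1) on log2((a + 1)/(b + 1)). Reads were recovered as whole multiples of the lowest RPKM steps. All 13114 genes above 0 in 2 or more libraries came out whole within 0.001 reads. Many multiples were tried for each gene, so genes above 0 in few libraries can come out whole by chance, and this is a weak check. Another 2452 were above 0 in 1 library, where nothing checks the step. The recovered reads serve for depth and for 1 alternative, and, with no molecular identifiers, reads from PCR are no count of independent molecules. Gene positions are from GENCODE vM21 and promoter windows from RefSeq (GRCm38.p6), matched by symbol.

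The members and the lists were chosen with earlier results of these data known. All 10 members are named; of other lists, up to 4 genes past the threshold are named by size of change, and in lists with none up to 3 in list order. The alternatives were another pseudocount, no filter, 3 other scalings, library weights, a replicate block, the label number series, 2-group fits and leaving out libraries.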

Additional observations from a re-analysis of the deposited data

How the results depend on the processing

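The alternatives listed at the start were all run, and leaving out both DKOITD 2 and WT 2 was added after seeing the data. The count of the 10 genes past the threshold in DKOITD against WT, 1 as reported, was 0 without a filter on low values, 0 with the replicate block and 0 with a term for the series of label numbers. It was 3 under quantile normalization, 7 on own recovered reads, 9 in TPM, 3 without both DKOITD 2 and WT 2, and 0 to 3 when each library was left out in turn. It stayed 1 with a pseudocount of 0.1, with library weights and with only the compared groups in the fit. In DKOITD against ITD it was 3 in TPM (H2-K1, H2-D1 and Psmb10) and 0 otherwise, and in ITD against WT it was 0 in all. Deviations of same-numbered libraries from their group means had correlations of -0.0444 to 0.0707, against -0.127 to 0.166 for other pairs. Groups of 2 to 4 libraries cannot exclude a pairing by such correlations, and the labels do not state one. The replicate block also moved the calls over all genes in DKOITD against WT to 884, against 1380 without it. The label number series moved them to 4; only DKOITD 4 shares a series with another group.

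Psmb8 in DKOITD against WT was positive in all alternatives (1.47 to 3.18, adjusted p = 0.00103 to 0.427). The 3 ratios kept their direction with a pseudocount of 0.1 and with each DKOITD or WT library left out (8 values each, 1.55 to 2.25 for Psmb8 to Psmb5, 0.025 to 0.77 for Psmb9 to Psmb6, 0.63 to 1.21 for Psmb10 to Psmb7); their p could not reach the threshold in this design. Over the 10 genes and 3 comparisons, 504 alternative values kept their direction and side of the threshold, 24 newly passed it, 8 no longer did and 34 turned direction; the cause was not tested. In DKOITD against WT, Tap2 turned to 0.78 in TPM and 0.19 on own reads. In DKOITD against ITD, Tap2 turned to 0.47 in TPM, Psmb9 to -0.097 with the replicate block, and Tapbp to 0.95 in TPM, 0.44 on own reads, 0.0047 with the label number series and 0.24 without both DKOITD 2 and WT 2. In ITD against WT, Tap1 turned to 0.15 in TPM, 0.030 on own reads and 0.053 with the replicate block. Tap2 turned to 0.0023 with a pseudocount of 0.1, 0.30 in TPM, 0.19 on own reads and 0.34 with the replicate block. Nlrc5 turned to 0.24 in TPM, 0.15 on own reads, 0.098 with library weights, 0.013 with the replicate block and 0.29 without both. Leaving out each library in turn gave, in DKOITD against ITD, -0.15 to 0.34 for H2-D1, -0.048 to 1.35 for Nlrc5, -0.13 to 0.55 for Psmb9 and -0.43 to 0.24 for Tapbp. In ITD against WT it gave -0.12 to 0.75 for H2-K1, -0.12 to 0.37 for H2-D1, -0.55 to 0.21 for Tap1, -0.25 to 0.18 for Tap2 and -0.70 to 0.69 for Nlrc5; with 1 ITD library left, that library is assumed to vary like the other groups.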
